A study of Mus musculus with 30 samples.

Results

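The antioxidant and glutathione genes were described in mouse ovaries as a set of 55 members. They are the protein-coding genes whose symbols mark them as superoxide dismutases (Sod), glutathione peroxidases (Gpx), peroxiredoxins (Prdx), thioredoxins and their reductases (Txn), or glutathione S-transferases (Gst), together with 10 genes taken by name: Cat, Hmox1, Nqo1, Gclc, Gclm, Gss, Gsr, Nfe2l2, Keap1 and Srxn1. The rule found 68 such genes among the 50600 in the table, and the 55 with a mean of at least 5 normalized counts over 30 libraries were kept, of 14646 genes that passed the same limit. A normalized count is a read count divided by a size factor of the library. Libraries were made by CEL-Seq, which tags transcripts at their 3' end. A transcript therefore gives tags independently of its length, and levels are compared between genes without division by length.

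Both ovaries of 15 female C57BL/6 mice gave 1 library each. Before sexual maturity, 7 of the mice drank 3% DSS for 7 days (dextran sulfate sodium, which damages the colon lining and brings on colitis). The other 8 were littermate controls, described as such in the design, although the same treatment text stands with every sample. Ovaries of both groups were taken after sexual maturity, at an age that the labels do not give, and no genetic alteration is named. Markers of granulosa cells, oocytes and luteal cells were detected, and of the theca and interstitial list only Insl3 was listed at 0. The recovered depth was 3095386 to 8564770 reads per library (median 4305814.5). Left ovaries carry odd and right ovaries even library numbers, so that a difference in handling cannot be told apart from side. Mice are named by group and label number, as in DSS_10.4. Nothing beyond the mouse numbers tells whether animals were handled apart. For DSS against control, p-values measure the spread between these mice. Where sides are compared, they measure the spread of the left minus right differences of these mice.

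Cells dispose of superoxide and peroxides in successive steps. Superoxide dismutases turn superoxide into hydrogen peroxide, which catalase, glutathione peroxidases and peroxiredoxins reduce further. Glutathione and thioredoxin supply the electrons and are themselves kept reduced by reductases that draw on NADPH. The transcription factor NFE2L2, held in the cytoplasm and marked for degradation by KEAP1, activates many of these genes through antioxidant response elements in their promoters. In the ovary these enzymes are active in the steroid-producing cells of the follicle and corpus luteum, where mitochondrial steroid synthesis releases oxidants.

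The core of the antioxidant response element, TGACNNNGC, was searched on both strands in the RefSeq promoter windows (GRCm38.p6), which run from 250 bases before to 50 after a start site. It was found in at least 1 window of 12 of 46 members with a window (26.1%) and of 3781 of 27025 genes (14.0%). A gene can have several windows. Counted by window, 12 of 62 member windows and 12.4% of all 32851 windows held a match. RefSeq windows were not at hand for Gclc, Gsr, Gsta4, Gstt2, Hmox1, Prdx6, Sod3, Txnl1 and Txnl4a. The stretches of 5 members are printed because they stand for different steps: Prdx1 and Sod1, both higher in right ovaries in the data below, Nfe2l2 and Gclm, which stand for the regulator and for glutathione synthesis, and Gsta3 for conjugation. Each is written 5′ to 3′ along the strand of its gene with the match in capitals; in Prdx1, Sod1 and Gclm the match lies on the opposite strand and appears reversed.
Prdx1: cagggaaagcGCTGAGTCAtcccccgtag
Sod1: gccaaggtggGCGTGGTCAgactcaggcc
Nfe2l2: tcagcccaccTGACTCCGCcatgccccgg
Gclm: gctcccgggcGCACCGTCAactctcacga
Gsta3: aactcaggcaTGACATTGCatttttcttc

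The Prdx1 stretch is at chr4:116685456-116685484 on the plus strand, with the match from base -133 to -125 counted from the start site. The Sod1 stretch is at chr16:90220696-90220724 on the plus strand (match at -56 to -48), and that of Nfe2l2 at chr2:75704885-75704913 on the minus strand (-240 to -232). Those of Gclm and Gsta3 are on the plus strand, at chr3:122245413-122245441 (-134 to -126) and chr1:21240454-21240482 (-121 to -113). Of the 9 members that differed between left and right ovaries and had a window, 2 held a match. A match is a description of the letters and shows no binding.

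The 55 members together held 33882 normalized counts on average, 0.775% of the counts of all tested genes. Their means ran from 11.8 (Txnl4b, a relative of a spliceosome thioredoxin-fold protein) to 6187 (Gstm2, a mu class transferase that couples glutathione to electrophiles). The 10 highest means belonged to Gstm2, Gpx3 (5467), Sod1 (2795), Gpx4 (2539), Gstm1 (2094), Gpx1 (1696), Prdx1 (1624), Gsta4 (872), Prdx6 (860) and Gsto1 (819). Each of these 10 was above at least 95.3% of the tested genes. Txnl4b and Gstt3 (15.5) were the members just above the limit of 5, and Nqo1, a quinone reductase (3.22), and Gpx6 (2.06) the candidates just below it. The other 11 candidates below the limit were Gpx2, Gsto2, Gstp3, Prdx6b, Gstm3, Gstt4, Gsta1, Txndc8, Gstp2, Gstp1 and Gpx5. Gstp1 and Gpx5 were listed at 0 in all 30 libraries. Gstp1, Gstp2 and Gstp3 are close copies of each other, and how the counting treated reads that fit several copies is not given in the sources used here.

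**Figure D1:**
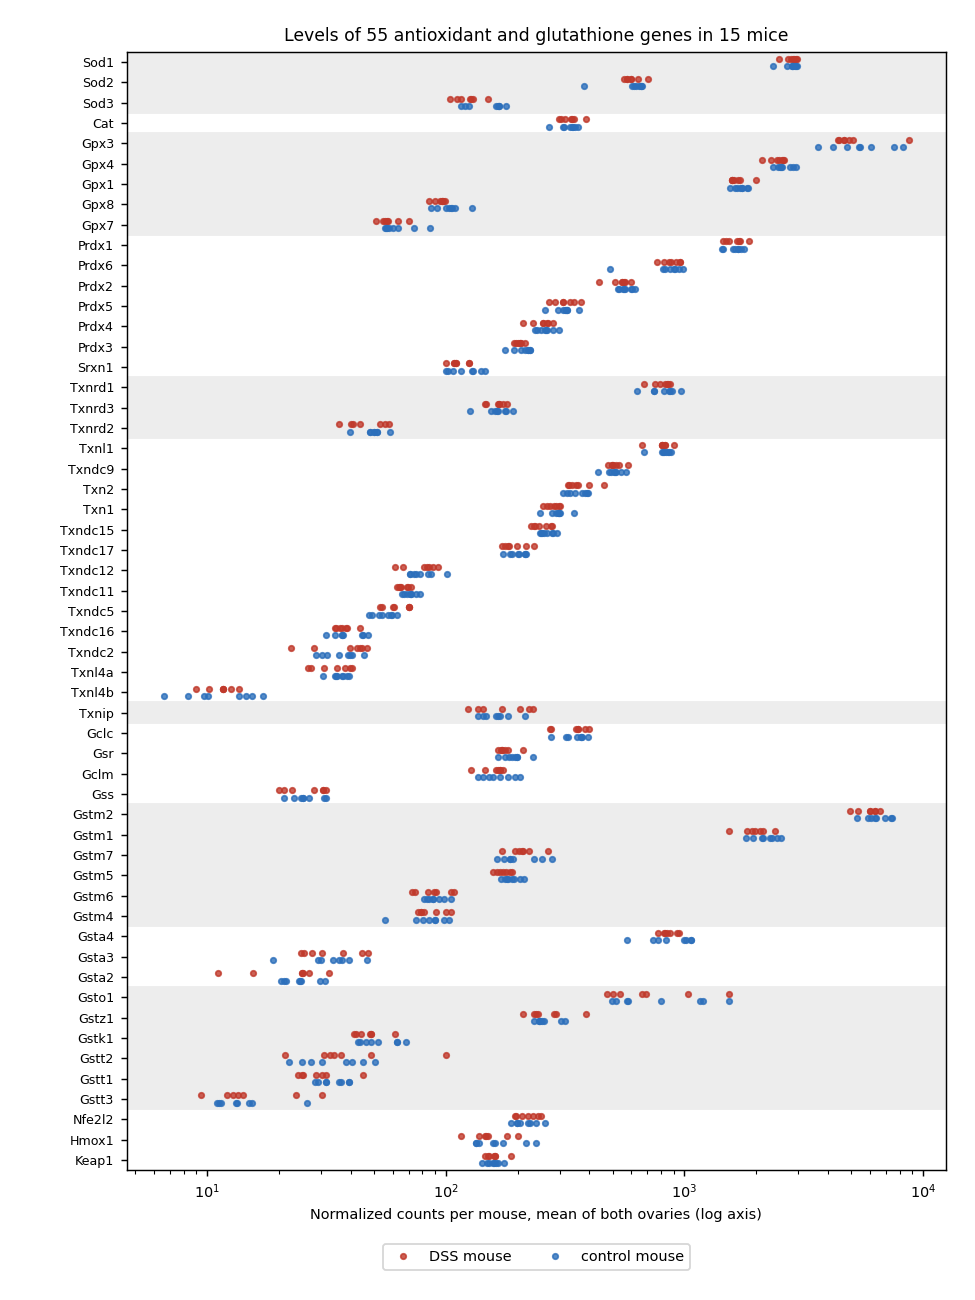
Level of each of the 55 members in each of 15 mice, as normalized counts averaged over both ovaries, on a log axis. Each red point is a DSS mouse (n = 7) and each blue point a control mouse (n = 8), and shading separates the families. The points of DSS and control mice lie over each other in every row, and the rows run from 11.8 (Txnl4b) to 6187 (Gstm2) in mean.

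Among the superoxide dismutases, the cytosolic copper-zinc enzyme Sod1 was the most abundant, with 2357 to 2970 normalized counts in the 15 mice. The mitochondrial manganese enzyme Sod2 lay between 381 and 704 and the secreted Sod3 between 104 and 179. Catalase, which breaks down hydrogen peroxide in peroxisomes, lay between 270 and 386. The ranges of Sod1, Sod2 and Sod3 did not overlap each other.

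Of the glutathione peroxidases, the secreted plasma enzyme Gpx3 ranged from 3630 to 8669, Gpx4, which reduces lipid peroxides in membranes, from 2121 to 2940, and the cytosolic Gpx1 from 1547 to 1999. Gpx8 and Gpx7, found in the endoplasmic reticulum, had means of 99.5 and 61.3. Among the peroxiredoxins the cytosolic Prdx1 was highest, followed by Prdx6 (490 to 990), which uses glutathione, Prdx2 (mean 555), Prdx5 (316), Prdx4 of the endoplasmic reticulum (258) and the mitochondrial Prdx3 (178 to 225). Srxn1, which repairs overoxidized peroxiredoxins, had a mean of 117.

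Of the thioredoxin system, the cytosolic reductase Txnrd1 (633 to 964) was more abundant than Txnrd3 (mean 164) and the mitochondrial Txnrd2 (48.4). The 13 thioredoxins and thioredoxin-domain proteins had means from 11.8 (Txnl4b) to 812 (Txnl1). Txn1, the cytosolic thioredoxin, lay between 248 and 346.2 and Txnip, which binds and inhibits it, between 124 and 232. For glutathione, Gclc, the catalytic subunit of the rate-limiting ligase, lay between 272.5 and 397, and its modifier subunit Gclm between 128 and 204. Gss, which adds glycine in the last step, was low at 20.045 to 31.5, and Gsr, which reduces oxidized glutathione, lay between 165 and 232. Nfe2l2 was at 187 to 261.4, Keap1 at 142 to 188 and Hmox1, the heme-degrading enzyme and an NFE2L2 target, at 116 to 239.

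The 6 mu class transferases among the members lie in a cluster on chromosome 3, in the order Gstm5, Gstm7, Gstm6, Gstm2, Gstm1 and Gstm4. Their means spanned 86.0 (Gstm4) to 6187 (Gstm2), so that neighbours within the cluster differed widely. The theta class genes Gstt3, Gstt1 and Gstt2 lie together on chromosome 10 and were all low, at 15.5, 32.1 and 38.9. Of the alpha class, Gsta4 (872) and Gsta2 (23.9) are on chromosome 9 and Gsta3 (33.9) on chromosome 1. Gstz1, which isomerizes an intermediate of tyrosine breakdown, lay between 212 and 388.2 in the 15 mice, and the mitochondrial Gstk1 between 41.5 and 67.9. Members of the mu, theta and alpha classes are similar in sequence, and their levels are uncertain to the extent that reads could be assigned to another copy. In addition 23 of the 55 members overlap another annotated gene, and whether strand was used in counting is not given in the sources used here.

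The SD over mice of a member's log2(normalized count + 1) had a median of 0.17 over the members and 0.22 over all tested genes. It ranged from 0.09 (Txndc11, a thioredoxin-domain protein of the endoplasmic reticulum) to 0.61 (Gsto1, an omega class transferase). The 5 members with the largest SD were Gsto1, Gstt2 (0.55), Gstt3 (0.46), Gsta2 (0.37) and Gpx3 (0.36). Gstt2 ranged 4.71-fold between the lowest and the highest mouse, Gsto1 3.23-fold and Sod1 1.26-fold. The SD of a mouse's left minus right difference had a median of 0.29 over the members.

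In the comparison of left with right ovaries, 12 of the 55 members (21.8%) differed, 6 higher on each side, where 10.2% of all tested genes did (limma with the mouse as a block, Benjamini-Hochberg adjusted p under 0.05). The shares over all genes were 4.56% with the left ovary higher and 5.6% with the right ovary higher. With the limit raised to a mean of at least 20, 13 of 53 members and 1560 of 10885 genes passed, a higher share of all genes. Higher on the right were Txndc9, Prdx1, Gpx3, Keap1, Prdx4 and Sod1, and higher on the left were Gsto1, Gstm6, Gsr, Hmox1, Gclc and Gpx1. By role, among the 12, Sod1, Prdx1 and Prdx4, which act on superoxide or peroxide, were higher on the right. Gclc and Gsr of the glutathione cycle were higher on the left, and the 2 glutathione peroxidases that differed, Gpx3 and Gpx1, did so in opposite directions. Differences are on the log2(normalized count + 1) scale. Counting values whether or not they passed, 5 of the 6 mu class transferases and 5 of the 6 of the theta, omega, zeta and kappa classes were higher on the left, and 2 of the 7 genes that hold the peroxiredoxins and Srxn1. So were 2 of the 3 superoxide dismutases (Sod2 and Sod3) and 3 of the 4 genes of glutathione synthesis and reduction (all but Gclm). The roles therefore did not move as a whole. The median difference, left minus right, was 0.06 over the members and 0.01 over all tested genes. In bulk tissue such as this, fewer cells of a type and less RNA per cell cannot be told apart.

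Txndc9 (ENSMUSG00000058407.12; chr1:37984889-37997893, minus strand), a thioredoxin-domain protein that binds the chaperonin TRiC, had 381, 452 and 513 normalized counts as the lowest, median and highest of 15 left ovaries and 488, 569 and 657 of 15 right ovaries. The ranges overlapped only between 488 and 513, and the right ovary was the higher one in 15 of 15 mice. The difference was -0.35 (SE 0.04, adjusted p = 5.86e-06). It was the smallest adjusted p among the members.

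Prdx1 (ENSMUSG00000028691.12; chr4:116685544-116701122, plus strand), whose promoter match is printed above, had 1077, 1471 and 1787 in left and 1482, 1849 and 2035 in right ovaries. The ranges overlapped, and 14 of 15 mice had more on the right. The difference was -0.33 (SE 0.06, adjusted p = 0.00146). Prdx4 (ENSMUSG00000025289.15; chrX:155323618-155340754, minus strand), which oxidizes partners during protein folding, had 197, 248 and 276 in left and 219, 280 and 334.3 in right ovaries. It was higher on the right in 12 of 15 mice with a difference of -0.20 (SE 0.06, adjusted p = 0.0340), and the ranges overlapped.

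Sod1 (ENSMUSG00000022982.9; chr16:90220742-90226622, plus strand) had 1902, 2685 and 3063 in left and 2485, 3056 and 3286 in right ovaries. The left median lay within the range of the right ovaries, and the lowest left ovaries below it. The difference was -0.19 (SE 0.06, adjusted p = 0.0298), with 12 of 15 mice higher on the right. Sod2 and Sod3 had differences of 0.11 (adjusted p = 0.338) and 0.08 (0.582), and Cat of -0.06 (0.470), none of which passed.

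Gpx3 (ENSMUSG00000018339.11; chr11:54902453-54910677, plus strand) had 3102, 4477 and 7864 in left and 3548, 5295 and 9475 in right ovaries. These ranges overlap broadly because mice differed strongly, but 13 of 15 mice had more on the right (difference -0.27, SE 0.06, adjusted p = 0.0119). Without the mouse as a block the adjusted p was 0.240. Gpx3 shares 193 bases with Tnip1 on the other strand, which had a mean of 71.2.

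Gpx1 (ENSMUSG00000063856.7; chr9:108338903-108340643, plus strand) went the other way, with 1656, 1770 and 2104 in left and 1251, 1594 and 1932 in right ovaries. The ranges overlapped, and 14 of 15 mice had more on the left (difference 0.15, SE 0.05, adjusted p = 0.0355). For Gpx4 the difference was 0.05 (adjusted p = 0.519). Keap1 (ENSMUSG00000003308.15; chr9:21229430-21239361, minus strand) had 120, 148 and 193 in left and 153, 169 and 195 in right ovaries, with overlapping ranges. It was higher on the right in 14 of 15 mice (difference -0.21, SE 0.06, adjusted p = 0.0337). Nfe2l2 had 237 ± 42.3 in left and 201 ± 29.1 in right ovaries (SD, n = 15 each), a difference of 0.23 with an adjusted p of 0.0892.

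**Figure D2:**
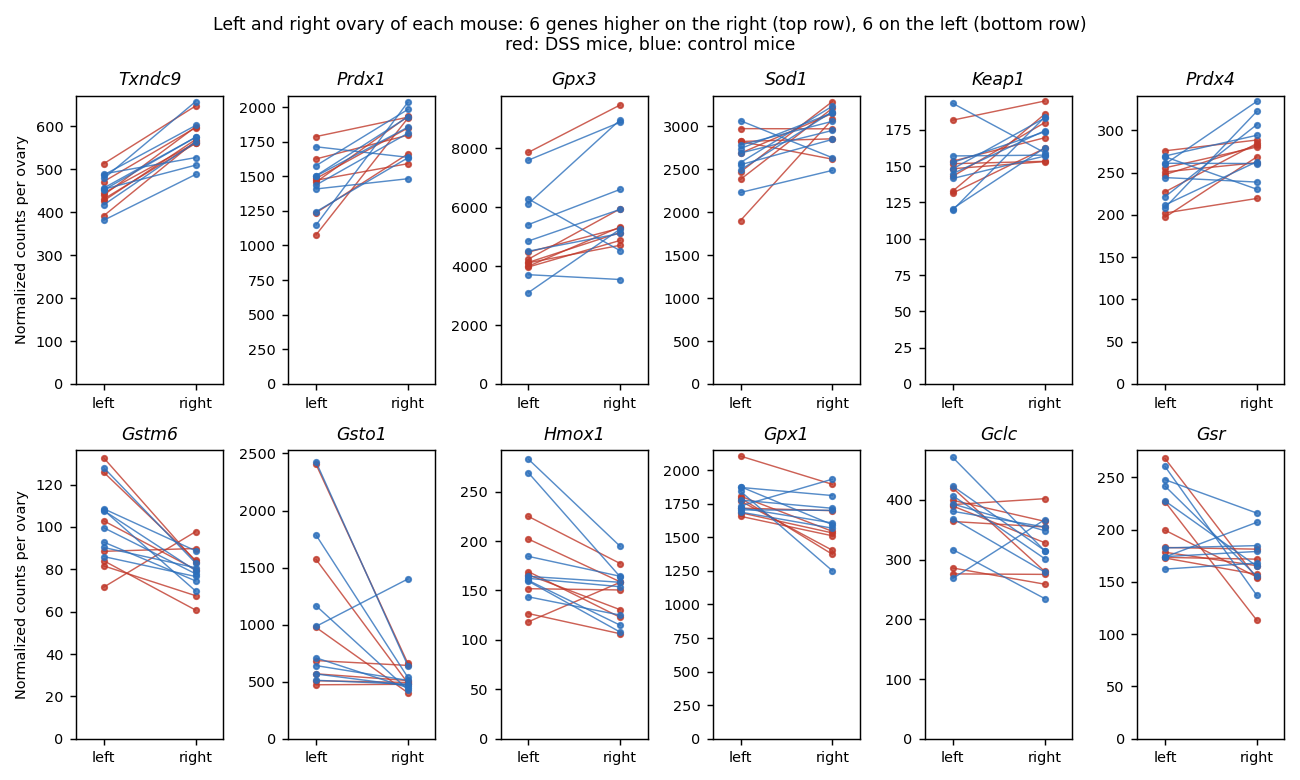
Normalized counts of the 12 members that differed between sides, in the left and right ovary of each of 15 mice. Lines join the ovaries of 1 mouse (red, 7 DSS mice; blue, 8 control mice), and each axis starts at 0. All 15 lines rise for Txndc9 from left to right, and 14 of 15 do for Prdx1; for Gsto1 the left ovaries reach 2426 and the right ovaries 1400.

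Gsto1 (ENSMUSG00000025068.7; chr19:47854970-47865090, plus strand), which reduces dehydroascorbate and arsenic compounds, had the largest difference among the members. It had 473, 709 and 2426 normalized counts as the lowest, median and highest of the left ovaries and 403, 493.35 and 1400 of the right ovaries. The lowest values were close and the left ovaries spread far above them, with 13 of 15 mice higher on the left (difference 0.74, SE 0.18, adjusted p = 0.0108). It lies within Cfap43, a gene of the other strand with a mean of 18.5.

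Gstm6 (ENSMUSG00000068762.11; chr3:107938547-107943749, minus strand), of the mu class cluster, had 71.6, 99.6 and 133 in left and 60.7, 79.9 and 97.8 in right ovaries. The left median was above every right ovary, and 13 of 15 mice had more on the left (difference 0.32, SE 0.08, adjusted p = 0.00957). Of the other 5 mu class members, Gstm1, Gstm2, Gstm5 and Gstm4 had values of 0.16, 0.13, 0.18 and 0.15 and Gstm7 of -0.07, none past the threshold (smallest adjusted p = 0.0894, Gstm1).

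Hmox1 (ENSMUSG00000005413.8; chr8:75093621-75100889, plus strand) had 118, 164 and 283 in left and 106, 154 and 195 in right ovaries. The medians were close and 2 left ovaries stood above the rest, yet 14 of 15 mice had more on the left (difference 0.27, SE 0.07, adjusted p = 0.0154). Gclc (ENSMUSG00000032350.9; chr9:77754535-77794785, plus strand) had 269, 390 and 471 in left and 235, 315 and 402 in right ovaries, with 13 of 15 mice higher on the left (difference 0.21, SE 0.07, adjusted p = 0.0441). Its partner Gclm had a value of -0.13 (adjusted p = 0.289), and Gss of 0.12 (0.534).

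Gsr (ENSMUSG00000031584.16; chr8:33652523-33698463, plus strand) had 162, 183 and 268 in left and 113, 165 and 216 in right ovaries. The ranges overlapped, and 11 of 15 mice had more on the left (difference 0.29, SE 0.09, adjusted p = 0.0493). The mitochondrial reductase Txnrd2 just missed the threshold with 0.32 (adjusted p = 0.0535), while Txnrd1 had -0.03 (0.814). Txn1 had 0.04 (adjusted p = 0.587), Txnip 0.15 (0.177) and Srxn1 0.11 (0.4004).

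When single mice were left out, Txndc9, Prdx1, Gstm6, Gsto1, Gpx3 and Hmox1 passed the threshold in all 15 fits. The others lost it in some: Sod1 in 5 fits, Gpx1 in 6, Keap1 and Prdx4 in 7 each, Gsr in 11 and Gclc in 12, with adjusted p-values of at most 0.0991. All 12 had the same sign in the 8 control and in the 7 DSS mice, as did 46 of the 55 members. The 12 were chosen over these same mice, so their agreement is no replication. The share of equal signs over all tested genes was not computed. In the control mice alone 4 members passed (Txndc9, Prdx1, Gstm6 and Hmox1), beside 2.62% of all tested genes, and in the DSS mice alone 2 (Gpx3 and Txndc9), beside 0.785%.

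Some markers of other tissue moved with side. The 12 markers of stratified epithelium, a tissue outside the ovary, summed to 142, 568.05 and 6802 normalized counts as the lowest, median and highest of the left ovaries and to 50.5, 149 and 933 of the right ovaries. They were higher on the left in 15 of 15 mice, and 9 of the 10 tested passed the threshold. The 8 macrophage markers summed to 1027 to 1956 in left and 966 to 1348 in right ovaries, were higher on the left in 13 mice, and 4 of them passed. Of 9 markers of the ovarian surface epithelium, 2 passed, both higher on the left. Of the 5 tested theca and interstitial markers 3 passed, 2 of them higher on the left, and of the 9 granulosa markers 1 passed, higher on the right. The 5 erythroid markers were all higher on the right in value, and 1 passed. The 9 oviduct markers summed to 2995 to 73714 in left (median 3904) and 3121 to 46721 in right ovaries (median 4074). Their sum was higher on the left in 7 of 15 mice. In value 2 of the 9 were higher on the left, and 0 passed.

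Keratin gene Krt5 was above 100 normalized counts in 7 ovaries, 6 of them left, of 6 mice, and Ovgp1, which encodes a secreted oviduct glycoprotein, was above 5000 in 7 ovaries, 3 of them left, of 6 mice. Without the 6 mice over the Krt5 limit, 9 mice were left (6 DSS and 3 control) and 2 members passed, Txndc9 (-0.34, adjusted p = 0.00472) and Gstt2, as did 2.16% of all tested genes. Without the 6 mice over the Ovgp1 limit, 5 members passed (Txndc9, Prdx1, Gstm6, Gsto1 and Hmox1), as did 5.0% of all tested genes. Without the mice over either limit, which left 6 mice, no member passed with limma, where 0.676% of all tested genes did, and 15 members had an unadjusted p under 0.05, beside 14.4% of all tested genes. There the differences of Txndc9 (-0.31), Prdx1 (-0.32), Gstm6 (0.42) and Gpx3 (-0.26) were close in size to those over all mice. Those of Gclc (0.12, from 0.21 over all mice) and Gsr (0.41, from 0.29) were less close. Each of the 12 members kept its sign there. These 6 mice are among the 15 on which the 12 were chosen, so a kept sign is no independent support. The part of these other tissues in the differences was otherwise not tested.

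The difference of Gsto1, 0.74 over all mice, was nearly unchanged without the mice over the Ovgp1 limit and smaller in the other subsets. It was 0.48 (adjusted p = 0.140) without the mice over the Krt5 limit, 0.72 (0.0259) without those over the Ovgp1 limit and 0.21 (0.302) without either. In the 16 ovaries under both limits Gsto1 lay between 403 and 709 (median 491), and in the 14 ovaries over a limit between 512 and 2426 (median 980). No ovary of the first kind and 6 of the second exceeded 1000. The highest 3 values, 2426 in control_11.4, 2404 in DSS_16.3 and 1785 in control_13.4, were all in left ovaries with Krt5 at 800, 804 and 1121. The other ovaries over the Krt5 limit had less Gsto1. It was 1166 in the left ovary of control_15.3 (Krt5 at 374) and 985 in that of control_10.5 (Krt5 at 283). In the left ovary of control_16.9 (Krt5 at 369) it was 641, and in the right ovary of DSS_16.3 (Krt5 at 103) 660. The part of other tissue in the difference of Gsto1 was not tested.

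**Figure D3:**
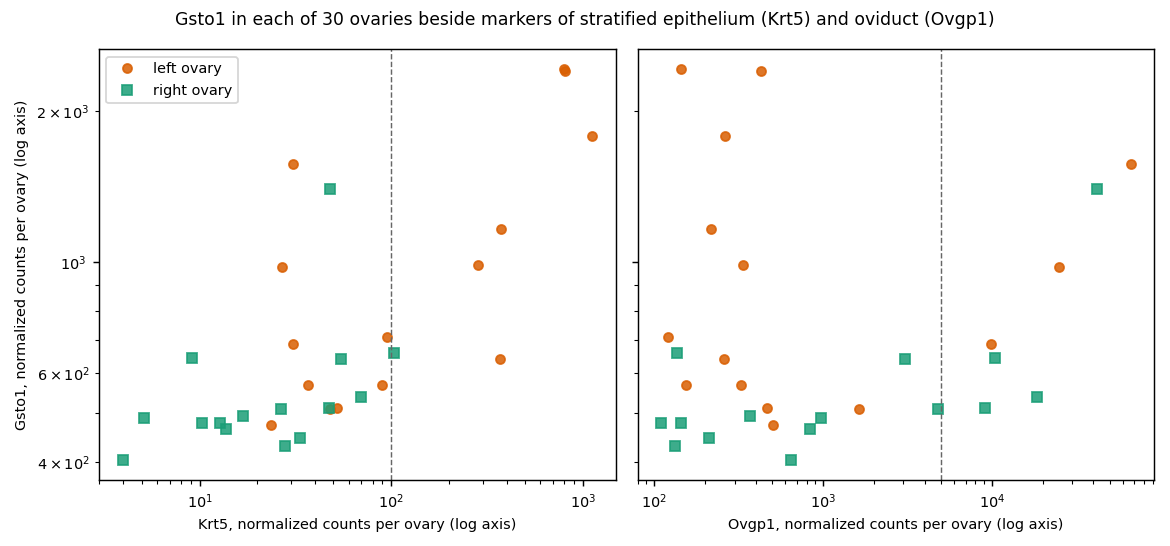
Gsto1 in each of 30 ovaries against Krt5 (left panel) and Ovgp1 (right panel), in normalized counts on log axes, with circles for left and squares for right ovaries. Dashed lines mark 100 for Krt5 and 5000 for Ovgp1. The 6 ovaries with Gsto1 above 1000 lie beyond the dashed line of at least 1 panel.

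In the comparison of DSS with control mice, which concerns a lasting change in the ovary after the pre-pubertal treatment, none of the 55 members passed, and 0.0% of all tested genes did (limma on the mean of both ovaries per mouse, adjusted p under 0.05). On the recovered reads edgeR and DESeq2 also called 0 members, and 6 (0.041%) and 52 (0.355%) of all tested genes. At an unadjusted p under 0.05 limma gave 1 member, Sod3, against 7.98% of all tested genes. Differences, DSS minus control, lay between -0.27 and 0.20, with a median of -0.03 over the members and 0.00 over all tested genes. Values were lower in DSS mice for 35 members (63.6%), and for 49.4% of all tested genes. All 5 glutathione peroxidases and all 3 thioredoxin reductases were among the 35, with values between -0.13 and -0.0038. The 95% intervals of the 55 members lay between -0.72 (Gsto1) and 0.73 (Gstt2), so that none reached a doubling or a halving on this scale.

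Sod3 (ENSMUSG00000072941.5; chr5:52363791-52371718, plus strand), the secreted superoxide dismutase, had 104, 126 and 151 normalized counts as the lowest, median and highest of the 7 DSS mice and 116, 165 and 179 of the 8 control mice. The ranges overlapped, since 3 control mice lay between 116 and 125, while 7 of 7 DSS mice were below the control median. Means were 124 ± 15.2 and 150 ± 25.5 (SD), a difference of -0.27 (SE 0.11, 95% interval -0.49 to -0.05, adjusted p = 0.565). It was -0.28 in left ovaries alone and -0.26 in right ovaries alone. Over 28 alternatives it remained negative, between -0.33 and -0.23, with adjusted p-values from 0.307 to 0.808.

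The other members with the smallest p and a lower value were Gstm5, Gstm1 and Gpx8. Gstm5 had 174 ± 12.0 in DSS and 189 ± 13.8 in control mice (-0.12, SE 0.06, adjusted p = 0.646). Gstm1 had 1976 ± 266 and 2197 ± 248 (-0.16, SE 0.09, adjusted p = 0.666). Gpx8 had 94.4 ± 4.83 and 104 ± 12.6 (-0.13, SE 0.07, adjusted p = 0.680), with 7 of 7 DSS mice below the control median. Gstm2, at 5906 ± 587 and 6432 ± 746, had a value of -0.12 (adjusted p = 0.718). In all of these the groups overlapped.

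With a higher value the smallest p belonged to Txndc5, a disulfide isomerase of the endoplasmic reticulum, with 62.8 ± 7.46 in DSS and 55.3 ± 5.16 in control mice (0.18, SE 0.08, adjusted p = 0.630). It was followed by Gstt2, Prdx6 and Gstt3, whose values were 0.20 (SE 0.25), 0.08 (SE 0.11) and 0.12 (SE 0.23). The sign of each of these 3 depended on a single mouse. Without DSS_11.2, at 100.11 normalized counts of Gstt2 against 21.3 to 48.7 in the other DSS mice, the value of Gstt2 was -0.03, and that of Gstt3 also -0.03. Without control_15.3, at 490 of Prdx6 against 814 to 990 in the other control mice, the value of Prdx6 was -0.02.

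The best-known members of the pathway had small values. Nfe2l2 was at 221 ± 21.7 in DSS and 217 ± 24.7 in control mice (0.03, 95% interval -0.13 to 0.19, adjusted p = 0.947), Keap1 at 160 ± 13.7 and 158 ± 10.7 (0.02, adjusted p = 0.960), and Hmox1 at 155 ± 27.9 and 169 ± 39.2 (-0.12, SE 0.13, adjusted p = 0.844). Sod1 (0.01), Sod2 (0.02), Cat (0.02), Prdx1 (0.01) and Gss (0.0042) had values within 0.02 of 0. Gpx1 (-0.03), Gclc (-0.02), Txnrd1 (-0.02), Prdx3 (-0.05), Gclm (-0.07), Txn1 (-0.06), Gpx4 (-0.10), Gpx3 (-0.10), Srxn1 (-0.10) and Gsr (-0.11) had negative and Txnip (0.07) a positive value. A p that misses the threshold does not show that the groups are alike, and the intervals bound the differences.

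**Figure D4:**
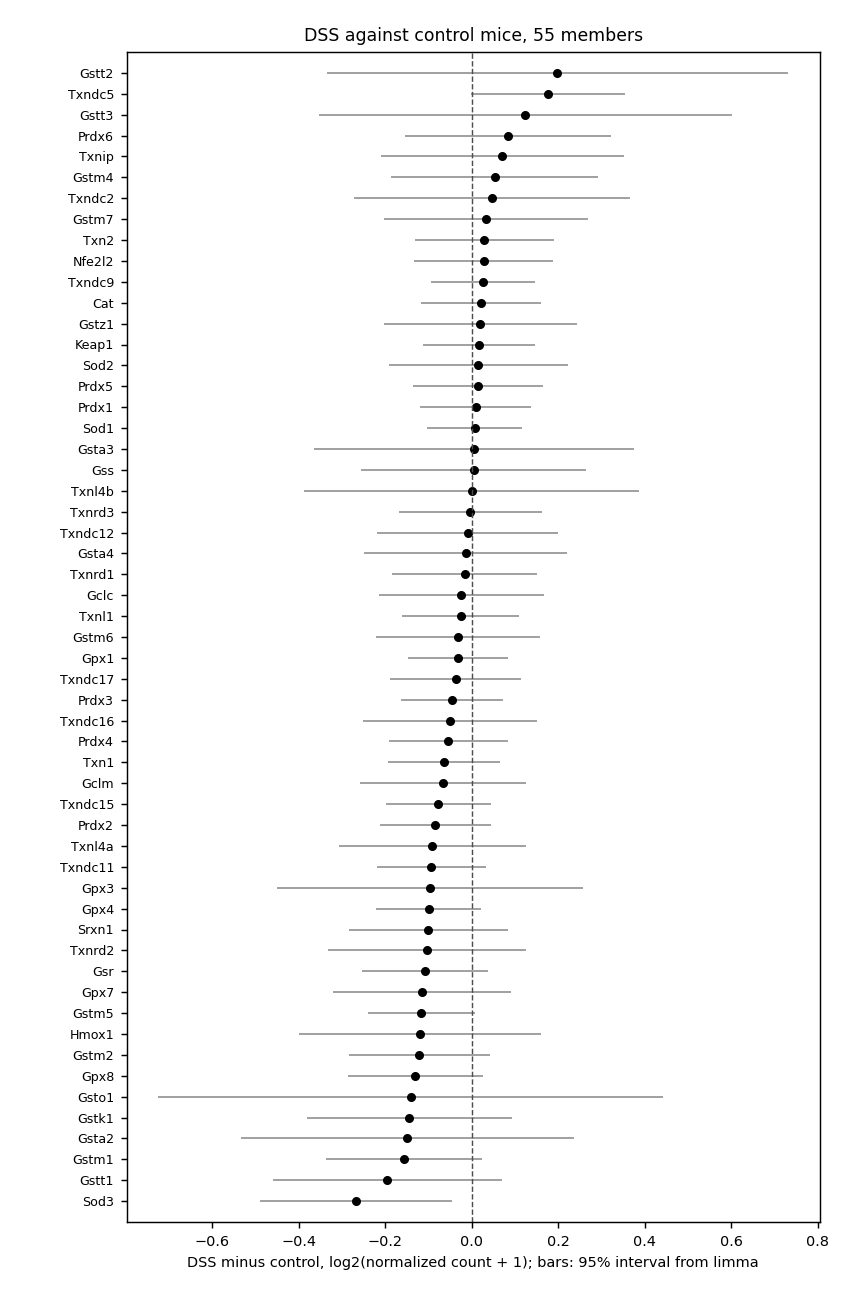
Difference between DSS (n = 7) and control mice (n = 8) for each of 55 members, as the log2(normalized count + 1) of the mean of both ovaries, with 95% intervals from limma before adjustment. The points run from -0.27 (Sod3) to 0.20 (Gstt2), and the interval of Sod3 is the one that leaves out 0.

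Marker sums also differed between the treatment groups in value, but no tested marker of any list passed the threshold. Of all tested genes 50.6% were higher in value in DSS mice. The stratified epithelium markers had a median of 189 per mouse in DSS mice (96.3 to 3868) and 1249 in control mice (220 to 3498), with 0 of 10 tested higher in value in DSS mice. The macrophage markers had 1371 (1213 to 1533) and 1161 (1081 to 1583), with 6 of 8 higher. For the oviduct markers it was 5994 (3936 to 39026) and 4314 (3354 to 25281), with 9 of 9 higher. For the smooth muscle markers it was 3933 (3208 to 13782) and 3443 (3053 to 8672), with 5 of 5 higher. The adipose markers had a median of 1313 (503 to 5645) in DSS and 593 (202 to 3850) in control mice, with all 7 tested markers higher in value in DSS mice, and the erythroid markers of 7265 (2837 to 10800) and 5287 (3341 to 9409), with all 5 higher in value. Of the lists of the ovary itself, the oocyte markers had a median of 1132 in DSS and 1379 in control mice, with 1 of 9 higher in value in DSS mice. The granulosa markers had 14970 and 16516, with 3 of 9 higher, and the luteal markers 156316 and 161058, with 6 of 8 higher. The part of these tissues in the values of the members was not tested.

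The left minus right differences of DSS mice were then compared with those of control mice. With limma 0 members passed, as did 0.0% of all tested genes, and edgeR called 0. At an unadjusted p under 0.05 there were 5 of the 55 members, a share near the 8.52% of all tested genes. The smallest p belonged to Txnl1, which binds the proteasome, and Txn2, the mitochondrial thioredoxin. For Txnl1 the left minus right difference was -0.18 in DSS and 0.10 in control mice (difference of differences -0.28, SE 0.10, adjusted p = 0.542). For Txn2 the values were -0.24 and 0.03 (-0.27, SE 0.10, adjusted p = 0.542).

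The other 3 were Gstt2, Gsta3 and Gstt3, chosen for mention because they had the largest values. Left minus right was 0.81 in DSS and 0.04 in control mice for Gstt2, 0.38 and -0.34 for Gsta3, and 0.52 and -0.37 for Gstt3, with a smallest adjusted p of 0.542. Gstt2 was highest in the left ovary of DSS_11.2 at 155 and Gstt3 in the same ovary at 43.7, an ovary with 66716 normalized counts of Ovgp1. In control mice Gstt3 was highest in the right ovary of control_10.5 at 39.98, where Ovgp1 was 41925. The part of oviduct tissue in these values was not tested.

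**Figure D5:**
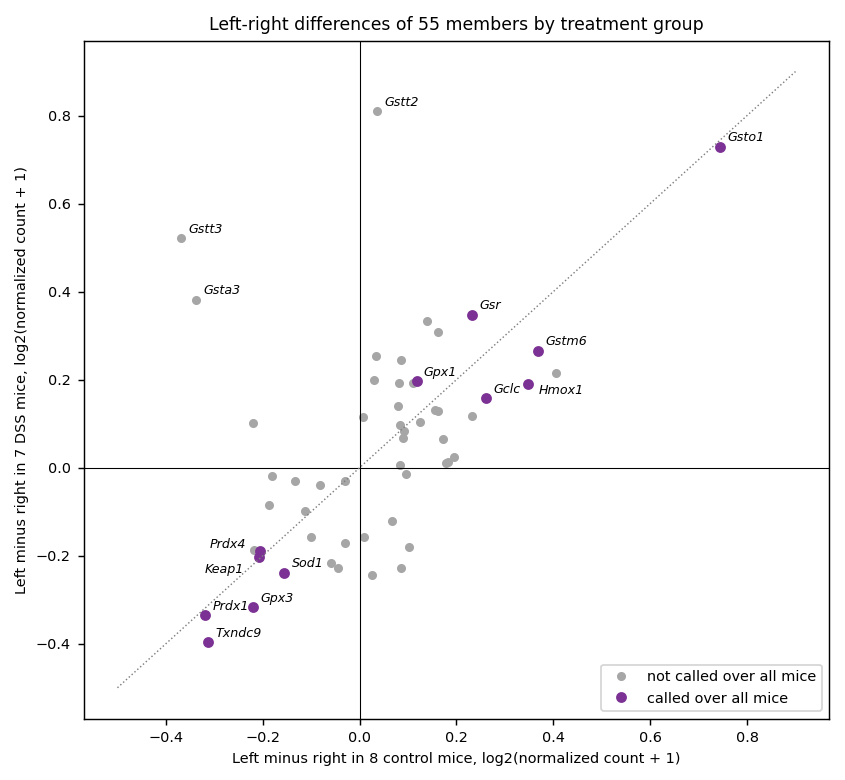
Left minus right difference of each of 55 members in 8 control mice (horizontal axis) and 7 DSS mice (vertical axis), on the log2(normalized count + 1) scale, with the 12 members that differed over all mice in purple. The dotted line marks equal differences. The 12, chosen over these same mice, have the same sign on both axes, and Gstt2, Gstt3 and Gsta3 lie farthest above the line.

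Other genes around this pathway were taken from 5 lists with 106 genes, of which 97 were tested. In left against right, 9 of the 97 passed, 6 higher on the left and 3 on the right, a share near the 10.2% of all tested genes. On the left these were Fth1, the ferritin heavy chain that stores iron (2122 ± 237 against 1799 ± 163, difference 0.23, adjusted p = 0.00106), Ftl1, its light chain (0.20, 0.0475), Ephx1, the microsomal epoxide hydrolase (0.29, 0.00896), Mgst3, a membrane-bound glutathione transferase (0.64, 0.0275), Lap3, an aminopeptidase (0.12, 0.0280), and Hagh, a glyoxalase (0.19, 0.0463). On the right these were Mafk, a small MAF partner of NFE2L2 (99.6 ± 15.7 against 124 ± 17.8, difference -0.31, adjusted p = 0.00130), Selenok, a selenoprotein of the endoplasmic reticulum (-0.25, 0.00329), and Rbx1, a subunit of the ligase that KEAP1 belongs to (-0.16, 0.0417). Mafk was higher on the right in 15 of 15 mice, and Fth1 on the left in 14 of 15. By list, 3 of 25 genes of glutathione turnover and transport passed, 0 of 14 of NADPH supply, 5 of 22 NFE2L2 partners, repressors and further targets, 1 of 24 of redox repair and selenoproteins and 0 of 13 oxidant sources, to be read against the same 10.2%.

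For DSS against control 0 of the 97 passed with limma, edgeR or DESeq2, and 10 had an unadjusted p under 0.05, a share near the 7.98% of all tested genes. The 3 smallest p belonged to Cybb, the catalytic subunit of the phagocyte NADPH oxidase, Fth1 and G6pdx, which makes NADPH. Cybb was at 205 ± 24.1 in DSS and 160 ± 26.0 in control mice (0.36, SE 0.10, adjusted p = 0.319). Fth1 was at 1842 ± 137 and 2065 ± 134 (-0.17, SE 0.05, adjusted p = 0.459), and G6pdx at 396 ± 15.9 and 434 ± 24.5 (-0.13, SE 0.05, adjusted p = 0.507). For the difference between sides 0 passed with limma, and 9 had an unadjusted p under 0.05, a share near the 8.52% of all tested genes, among them Mgst3 (-0.90) and Nfe2l1, a relative of NFE2L2 (-0.25), with a smallest adjusted p of 0.542.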

How the data were processed

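RNA of 30 ovaries was profiled by CEL-Seq with 3 primers pooled per sample, per the labels' protocols. The tools were DESeq2, HTSeq and TopHat and the build was GRCm38.p5, per the submitters' processing notes; versions, the strand setting, the handling of molecular identifiers and of reads that fit several genes are not given in the sources used here. The authors deposited a signal per gene, normalized counts with 2 decimals, which per the values are whole reads divided by 1 size factor per library. A read was worth 0.53 to 1.33 normalized counts, and 99.98% to 100% of values came out whole within 0.0051. Intervals cover the spread between mice. Coordinates are as deposited.

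For 14646 genes whose mean reached 5, log2(normalized count + 1) was tested two-sided in R 4.3.3 with limma 3.58.1 and a trend (Benjamini-Hochberg over all of them, threshold 0.05). This scale understates changes of low genes. The mouse was the replicate: DSS against control used the mean of both ovaries, left against right used the mouse as a block, and the difference between sides used each mouse's left minus right value. The pairing comes from the mouse number in the labels; left and right deviations from the group means correlated at -0.27 to 0.37 per mouse (median 0.18, over 0.1 in 10 of 15). edgeR 4.0.16 and DESeq2 1.42.0 on the recovered reads, other pseudocounts, filters and scalings, subsets of ovaries and each mouse left out were alternatives.

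The members, marker and pathway lists and the limits for Krt5 and Ovgp1 were chosen with earlier results of these data known. Named by rule were 22 genes of known role, the 4 smallest p per direction for DSS, all that passed for left against right, the 2 smallest p for the difference between sides, the 5 largest SDs, the 10 highest means, 2 genes each side of the limit of 5 and the Gsta, Gstm and Gstt genes. Of other pathway genes, the 3 smallest p per comparison and any that passed were named. Txnrd2, Gstt2, Gsta3 and Gstt3 are also mentioned for values seen in the data. Some results that the rule names are not reported here.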

Additional observations from a re-analysis of the deposited data

Results flagged for a closer look

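Of 110 groups (55 members in 7 DSS and 8 control mice), 13 held a mouse whose value, the mean of both ovaries, stood apart from the others of its group by Dixon's criterion. For independent, normally distributed values chance meets it in about 1 of 20 groups. Here it was applied to counts without a log, and several flags share a mouse. Its rate over all tested genes was not computed, so the 13 show no excess particular to the members. In DSS_11.1 Gpx3 was high at 8669 against 4413 to 5093 in the other DSS mice, as were Gpx1 at 1999 (1582 to 1708) and Gstk1 at 61.3 (41.5 to 48.9). Both ovaries of this mouse shared the high Gpx3, at 7864 and 9475. In DSS_11.2 Gstt2 was high at 100.11 (21.3 to 48.7 in the others), Gstt1 at 45.2 (24.0 to 31.6), and Txnl1 was low at 663 (802 to 905). All 3 were more extreme in its left ovary, which had 66716 normalized counts of Ovgp1 and 142 of Lhcgr, the luteinizing hormone receptor.

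In control_15.3 Sod1 was low at 2357 against 2698 to 2947 in the other control mice, Sod2 at 381 (601 to 664) and Prdx6 at 490 (814 to 990), and both ovaries of the mouse were low. The same mouse had Lhcgr at 396, Cyp11a1 at 5826 and Cyp17a1, an enzyme of androgen synthesis, at 38.9, each the lowest of the control mice. In control_10.5 Gstt3 was high at 26.3 (11.045 to 15.5) and Txnl1 low at 674 (806 to 880), both more extreme in the right ovary, where Ovgp1 was 41925. Keap1 was high in DSS_16.3 at 188 (147 to 161), and Gsr in DSS_13.2 at 211 (165 to 182), through its left ovary at 268.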

How the results depend on the processing

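The count of members called in left against right, 12 over all mice, was 10 to 13 under other pseudocounts, a higher filter, TMM and quantile scaling, edgeR and DESeq2. Over all tested genes these gave 1151 to 1503 calls of 14646, and 1560 of 10885 with the higher filter. It was 8 with no replicate block, 6 with all genes above 0 tested, 4 in control mice and 2 in DSS mice alone, 5 without mice over 5000 Ovgp1, 2 without mice over 100 Krt5, 0 without mice over either limit (an alternative chosen after seeing the data) and 7 to 12 with single mice left out, lowest without DSS_10.3 and without control_16.9. Subsets held fewer mice. Over all tested genes the calls were 1488 of 14646 over all mice, 1163 with no replicate block and 1105 of 29326 with all genes above 0 tested. They were 384 in control mice, 115 in DSS mice, 733 without mice over 5000 Ovgp1, 316 without mice over 100 Krt5 and 99 without mice over either limit. With single mice left out they were 1183 to 1569. The cause was not tested further. The 9 other pathway genes became 5, 5, 4, 0, 4, 1 and 0 under the filter, no replicate block, control mice, DSS mice, Ovgp1, Krt5 and either limit, and 5 to 11 with single mice left out (5 without DSS_10.3, DSS_15.1 or control_13.5). These counts, out of 97 tested, are to be read beside the calls over all tested genes just given for the same alternatives. For DSS against control no member was called in any of 28 alternatives, including the replicate block by the number before the dot of the mouse name (0 members), whose meaning the labels do not give, nor for the difference between sides in 18. Of 607 alternatives for named members, 490 kept direction and call, 112 lost the call and 5 changed sign, all in DSS against control: Gstt2 (-0.23) and Gstt3 (-0.30) in right ovaries only, Gstt2 (-0.026) and Gstt3 (-0.031) without DSS_11.2, and Prdx6 (-0.023) without control_15.3. At a median of 4305814.5 reads per library, members with means under 20, such as Gstt3 and Txnl4b, rest on few reads per ovary.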
